A study of Mus musculus with 18 samples.

Results

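The 3 libraries of the lesion 3 days after a photothrombotic stroke (numbers 1, 2 and 8) were set against the 3 libraries of the lesion 1 day after it (numbers 1, 3 and 4), which are 6 of the 18 libraries of the series. All genes with an FPKM (fragments per kilobase of transcript, scaled to the mapped fragments of the library) of at least 1 in 3 or more of the 18 libraries were compared, 14016 of 34921 gene entries. From 1 day to 3 days, genes of cell division, of microglia and macrophages, of the lysosome and of antigen presentation rose, and so did the glial filaments Vim and Gfap. The chemokines Ccl2, Ccl7, Ccl12 and Cxcl1, the pentraxin Ptx3 and the chaperones Hspb1, Hspa1a and Hspa1b fell. Not all of these calls held in 18 alternative fits. Gfap lost its call in 7 of them, Ccl12 in 11, Hspa1a in 9 and Hspa1b in 8, while Ptx3 and Cxcl1 kept theirs in all. The animals were male C57BL/6 mice of 9 weeks, 3 per time point. Both groups received 100 mg/kg of the photosensitive dye rose bengal intraperitoneally and, 5 min later, 15 min of 532 nm light (40 mW) through a fiber of 2 mm diameter placed 2 mm right of the bregma. The light-activated dye closes small vessels under the fiber. Both groups were treated alike and differ in the time of sampling. The tissue was punched from frozen brain at the lesion seen in T2-weighted magnetic resonance images, and total RNA was sequenced. Values of the sham right group (the matching right side of sham mice), of the 4 h and of the 10 day lesion are given where they place a gene in the time course.

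In the first day after an infarct, injured tissue makes chemokines and stress proteins, and blood-borne neutrophils and monocytes enter. In the following days, resident microglia and astrocytes divide, monocytes mature into macrophages, and both kinds of phagocyte take up dead cells and myelin and break them down in lysosomes. Astrocytes build up intermediate filaments around the lesion, and fibroblast-like cells lay down matrix. A punch of the lesion can hold all of these cells. In such bulk tissue, fewer cells of a type and less RNA per cell cannot be told apart, and the same holds for more cells and more RNA per cell.

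The read depth of the libraries is not known, because the file holds FPKM and its low values did not fall on whole read steps. The 6 libraries held between 12325 and 13632 genes at 1 FPKM or more. Mitochondrially encoded transcripts made up 24.4% to 33.0% of the summed FPKM at 1 day and 25.6% to 27.2% at 3 days. Markers of brain regions also varied between libraries. Drd2, the D2 dopamine receptor of striatal neurons, was at 0.594, 0.311 and 4.08 FPKM at 1 day and 0.263, 3.03 and 0.286 FPKM at 3 days, so that 1 day 4 and 3 day 2 stood apart from the rest. Drd1, the D1 receptor, was at 1.91, 2.09 and 5.25 FPKM at 1 day and 1.64, 4.302 and 1.97 FPKM at 3 days. Ttr, the transthyretin of choroid plexus, was at 65.5, 0.502 and 421 FPKM at 1 day and 60.2, 219.5 and 0.407 FPKM at 3 days. It ranged over orders of magnitude inside both groups, and no difference between them could be read from it (limma adjusted p = 1). Col1a1, a collagen of meninges and vessel walls, was at 0.702, 0.252 and 0.779 FPKM at 1 day and 1.57, 2.54 and 10.0 FPKM at 3 days, with 3 day 8 far above the other libraries. Slc17a7, the vesicular glutamate transporter of cortical neurons, was above 100 FPKM in all 6 libraries. The part of the regional markers in the results was not tested beyond leaving libraries out.

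By limma on log2(FPKM + 1), 732 of 14016 genes (5.22% of all genes tested) passed a Benjamini-Hochberg adjusted p of 0.05, and 1782 genes had an unadjusted p under 0.05. Of the 732 genes, 711 rose (5.07% of genes tested) and 21 fell (0.15% of genes tested). Counts of called members in the gene lists below stand against these shares, and a few calls in a short list say little about that list. The 3 values at 3 days lay all above the 3 values at 1 day in 707 of the 711 genes that rose, against 16.9% of all genes tested. They lay all below them in 21 of the 21 genes that fell, against 4.86% of all genes tested. The groups overlapped in Adam8, AA467197, Spidr and Tagln2, which were called higher all the same. Changes of at least 1 on the log2 scale were 247 rises and 9 falls. The median log2 fold change was 0.84 over the genes that rose, -0.97 over those that fell and 0.03 over all genes tested. All fold changes below are differences of mean log2(FPKM + 1), at 3 days minus 1 day, and are given ± SE with n = 3 libraries per group. The added 1 understates the change of genes at low FPKM. Among the called genes 703 were protein-coding, 11 were processed pseudogenes, 7 were lincRNAs and 11 had other annotations. Values by library follow the order 1, 3 and 4 at 1 day and 1, 2 and 8 at 3 days. Leaving out 1 library gave between 388 rises (without 3 day 8) and 781 (without 3 day 2), with 451 without 1 day 1, 466 without 1 day 3 and 482 without 3 day 1. It gave between 11 falls (without 1 day 3 or 3 day 8) and 18. Without 1 day 4 and 3 day 2 together, the libraries with the most Drd2, 744 genes rose and 10 fell, of which 600 and 7 were among the 711 and 21. Of the called genes named here, Angpt2, Arc, Btg2, Ccl12, Ccl7, Dusp1, Gpatch4, Hsp25-ps1, Hspa1a, Hspa1b, Macrod2, Myl9, Ndufa4l2, Olig1, Pltp, Rarres2, Rgs5, Snora33, Steap4, Tagln, Tek and Tie1 were not called in that fit.

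**Figure D1:**
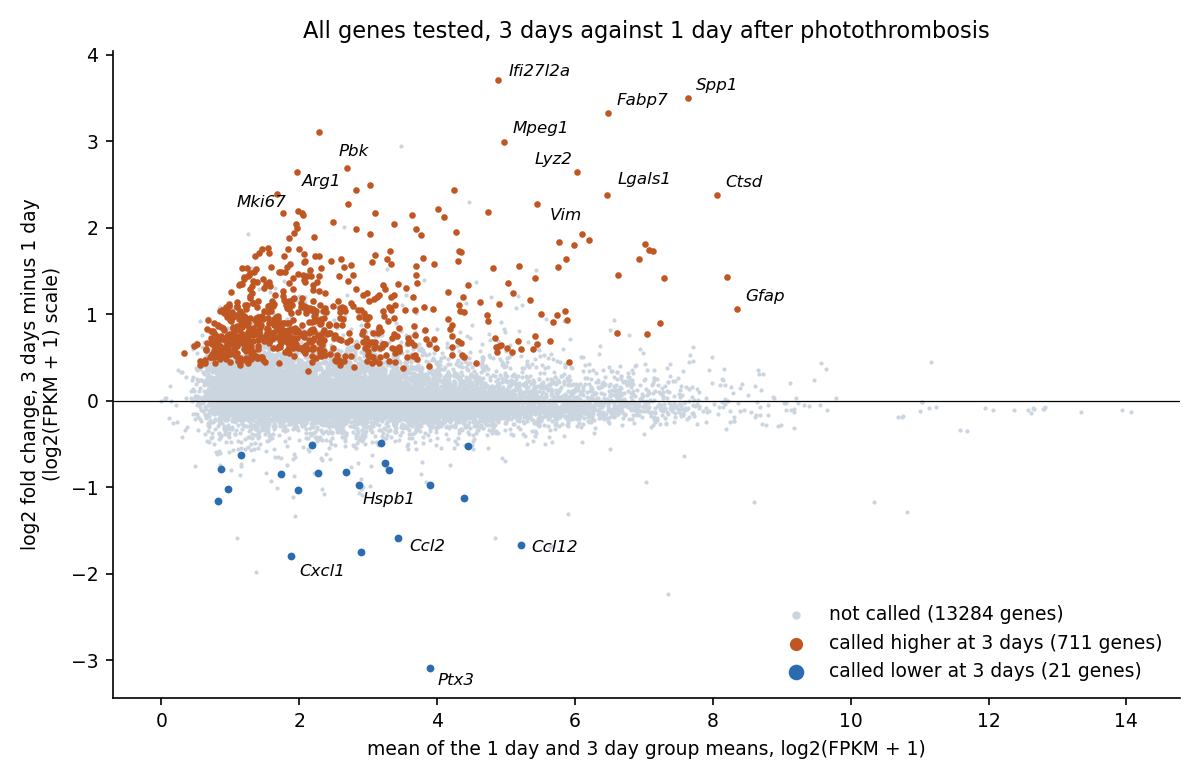
Log2 fold change from 1 day to 3 days (vertical axis, log2(FPKM + 1) scale) against the mean level of each of the 14016 genes tested (horizontal axis, log2(FPKM + 1) of the mean of both group means). The 711 genes called higher spread from low to high levels, and the 21 called lower lie at low and middle levels, with Ptx3 at the bottom.

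The genes of mitosis include many whose promoters share short sequence elements, and 5 of them are shown with these elements in capitals. They are the called mitosis genes with the smallest adjusted p whose promoter held both elements in the 250 bases before the transcription start. The printed stretch that spans all matches there was limited to 150 bases. CCAAT (on the other strand ATTGG) is the site of the factor NF-Y, and TTTGAA (on the other strand TTCAAA) is the cell cycle homology region bound by the DREAM complex, which holds cell cycle genes silent in resting cells. Sequences are from RefSeq (GRCm38.p6), 5′ to 3′ in the direction of the gene, and end before the start site.
Cdc20 (chr4:118437344-118437404, minus strand): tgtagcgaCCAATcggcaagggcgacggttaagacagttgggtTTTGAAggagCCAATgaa
Ect2 (chr3:27153921-27154000, minus strand): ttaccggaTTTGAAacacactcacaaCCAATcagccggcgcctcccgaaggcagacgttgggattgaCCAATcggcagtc
Mki67 (chr7:135716464-135716575, minus strand): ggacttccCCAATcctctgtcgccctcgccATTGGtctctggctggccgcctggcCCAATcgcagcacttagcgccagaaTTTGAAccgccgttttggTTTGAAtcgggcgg
Kif11 (chr19:37376329-37376376, plus strand): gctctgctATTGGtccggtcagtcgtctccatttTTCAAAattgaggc
Smc2 (chr4:52439068-52439114, plus strand): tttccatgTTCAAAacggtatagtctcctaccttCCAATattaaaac
Both motifs were searched on both strands over 250 bases before and 50 bases after the start in the first promoter entry of each gene. A CCAAT match and a TTTGAA match can share a base, and the counts of both do not exclude this. Of the 26 mitosis genes tested, 22 had an entry, of which 18 (81.8%) held CCAAT, 16 (72.7%) held TTTGAA and 15 (68.2%) held both. Of the promoters of all 27018 genes with an entry, 37.9% held CCAAT, 18.1% TTTGAA and 7.12% both. Among the 10096 tested genes with an entry, the shares were 38.5%, 11.3% and 4.69%. The motif GCGGGAA belongs to E2F factors, which drive genes of DNA synthesis. It was in 0 of the 22 mitosis promoters and in 10 of the 19 (52.6%) promoters of DNA replication genes. It was in 4.66% of all promoters and in 8.21% of those of tested genes. Of the 540 genes called higher with an entry, 40.2% held CCAAT, 17.6% TTTGAA, 9.26% both and 6.3% GCGGGAA. These 540 include called mitosis genes. Of the 13 genes called lower with an entry, 6 held CCAAT, 0 TTTGAA and 0 GCGGGAA. Only 10096 of 14011 tested symbols had an entry, so that these shares describe the genes with an entry alone. The DNA replication genes held CCAAT in 14 of 19 promoters (73.7%) and TTTGAA in 2 of 19. A match describes these letters and shows no binding.

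Of the 26 mitosis genes tested, 25 rose and 0 fell, with a median log2 fold change of 1.42 against 0.03 over all genes tested. In each of the 25, all 3 values at 3 days lay above the 3 at 1 day, against 16.9% of all genes tested. Mki67, the Ki-67 antigen of cycling cells, was at 0.195, 0.355 and 0.986 FPKM at 1 day and 5.21, 3.72 and 8.49 FPKM at 3 days (log2 fold change 2.15 ± 0.31, adjusted p = 4.74e-04). At 1 day its highest value was in 1 day 4, and at 3 days 3 day 8 was highest and 3 day 2 lowest, yet the lowest 3 day value was far above the highest 1 day value. Top2a, the topoisomerase that untangles replicated DNA, was at 0.137, 0.345 and 0.969 FPKM at 1 day and 5.52, 3.53 and 8.28 FPKM at 3 days (2.17 ± 0.24, adjusted p = 4.23e-05). Pbk, a kinase of mitotic cells, was at 0.359, 0.488 and 1.29 FPKM at 1 day and 9.63, 6.43 and 14.6 FPKM at 3 days (2.69 ± 0.24, adjusted p = 5.61e-06), and it was the fifth largest rise among genes with a full name. The cyclin-dependent kinase that starts mitosis and its partners moved together. Cdk1 was at 0.0489, 0.275 and 0.334 FPKM at 1 day and 2.59, 2.21 and 3.95 FPKM at 3 days (1.67 ± 0.15, adjusted p = 5.32e-06). Its cyclin Ccnb1 was at 0.105, 0.182 and 0.396 FPKM at 1 day and 2.79, 2.25 and 4.71 FPKM at 3 days (1.76 ± 0.18, adjusted p = 1.78e-05). Ube2c, the enzyme that marks cyclins for destruction at the end of mitosis, was at 0.0668, 0.131 and 0.438 FPKM at 1 day and 4.15, 3.04 and 6.63 FPKM at 3 days (2.17 ± 0.19, adjusted p = 4.75e-06). Among the 3 day libraries, 3 day 8 was highest and 3 day 2 lowest in all of these genes, and none of the values overlapped between the groups. Cdc20, the activator of the anaphase complex whose promoter is shown above, was at 0.479, 0.577 and 0.747 FPKM at 1 day and 4.26, 2.90 and 6.55 FPKM at 3 days (1.75 ± 0.20, adjusted p = 4.63e-05). Kif11, the motor that separates the spindle poles, was at 0.251, 0.430 and 0.850 FPKM at 1 day and 3.09, 2.21 and 5.26 FPKM at 3 days (1.55 ± 0.23, adjusted p = 4.84e-04). Ect2, which directs the cleavage furrow, rose by 1.08 ± 0.15 and Smc2, a condensin subunit, by 0.81 ± 0.20. The member that did not pass the test was Anln, the furrow protein anillin, at 5.76, 6.62 and 8.18 FPKM at 1 day and 6.92, 7.10 and 5.82 FPKM at 3 days (limma adjusted p = 1). Smc2 was not called without 1 day 1, 1 day 3, 3 day 1 or 3 day 8 (adjusted p = 0.0672 to 0.154).

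Of 23 tested genes of DNA replication and licensing, 10 rose and 0 fell (median 0.52). In 19 of the 23, the 3 day values all lay above the 1 day values, against 16.9% of all genes tested. Rrm2, the regulated subunit of ribonucleotide reductase, was at 0.900, 0.860 and 1.70 FPKM at 1 day and 7.26, 6.71 and 15.9 FPKM at 3 days (log2 fold change 2.27 ± 0.23, adjusted p = 2.31e-05). Tk1, thymidine kinase, was at 0.199, 0.119 and 0.317 FPKM at 1 day and 1.31, 1.17 and 2.09 FPKM at 3 days (1.04 ± 0.13, adjusted p = 1.48e-04). Uhrf1, which carries DNA methylation over to the new strand, was at 0.345, 0.468 and 1.096 FPKM at 1 day and 2.46, 1.88 and 3.61 FPKM at 3 days (1.16 ± 0.17, adjusted p = 4.96e-04). The groups were apart in all of them, and 3 day 8 was again highest. Of the subunits of the replicative helicase, Mcm6 (0.90 ± 0.18), Mcm3 (0.71 ± 0.17) and Mcm7 (0.52 ± 0.14) rose, and Mcm5 did not pass the test, at 1.41, 1.81 and 2.69 FPKM at 1 day and 3.55, 2.63 and 4.46 FPKM at 3 days (0.62 ± 0.18, limma adjusted p = 0.0644). The 3 day 2 value of Mcm5 lay below its highest 1 day value. Cdkn2c, the inhibitor p18 of cyclin-dependent kinases, was at 1.08, 1.49 and 1.66 FPKM at 1 day and 5.67, 4.09 and 7.13 FPKM at 3 days (1.44 ± 0.21, adjusted p = 4.96e-04) and was the called gene among 12 cell cycle inhibitors and p53 targets (median 0.14). Cdkn1a, the p53 target p21, was at 9.22, 13.05 and 14.3 FPKM at 1 day and 11.3, 8.58 and 17.0 FPKM at 3 days (limma adjusted p = 1). Of the 23 replication genes, 6 were called without 1 day 1 and 5 were called without 3 day 8. Mcm6 was not called without 3 day 8 (adjusted p = 0.0559), nor Mcm3 without 1 day 1, 1 day 3, 3 day 1 or 3 day 8 (adjusted p = 0.0878 to 0.137). Mcm7 was not called without 1 day 1, 1 day 3, 3 day 1 or 3 day 8 (adjusted p = 0.123 to 0.262). In the time course, Top2a was at 0.367 ± 0.104 FPKM in sham right, 0.333 ± 0.219 at 4 h and 1.42 ± 0.566 at 10 days, and Rrm2 at 0.750 ± 0.182 FPKM in sham right, 0.725 ± 0.256 at 4 h and 1.70 ± 0.264 at 10 days.

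**Figure D2:**
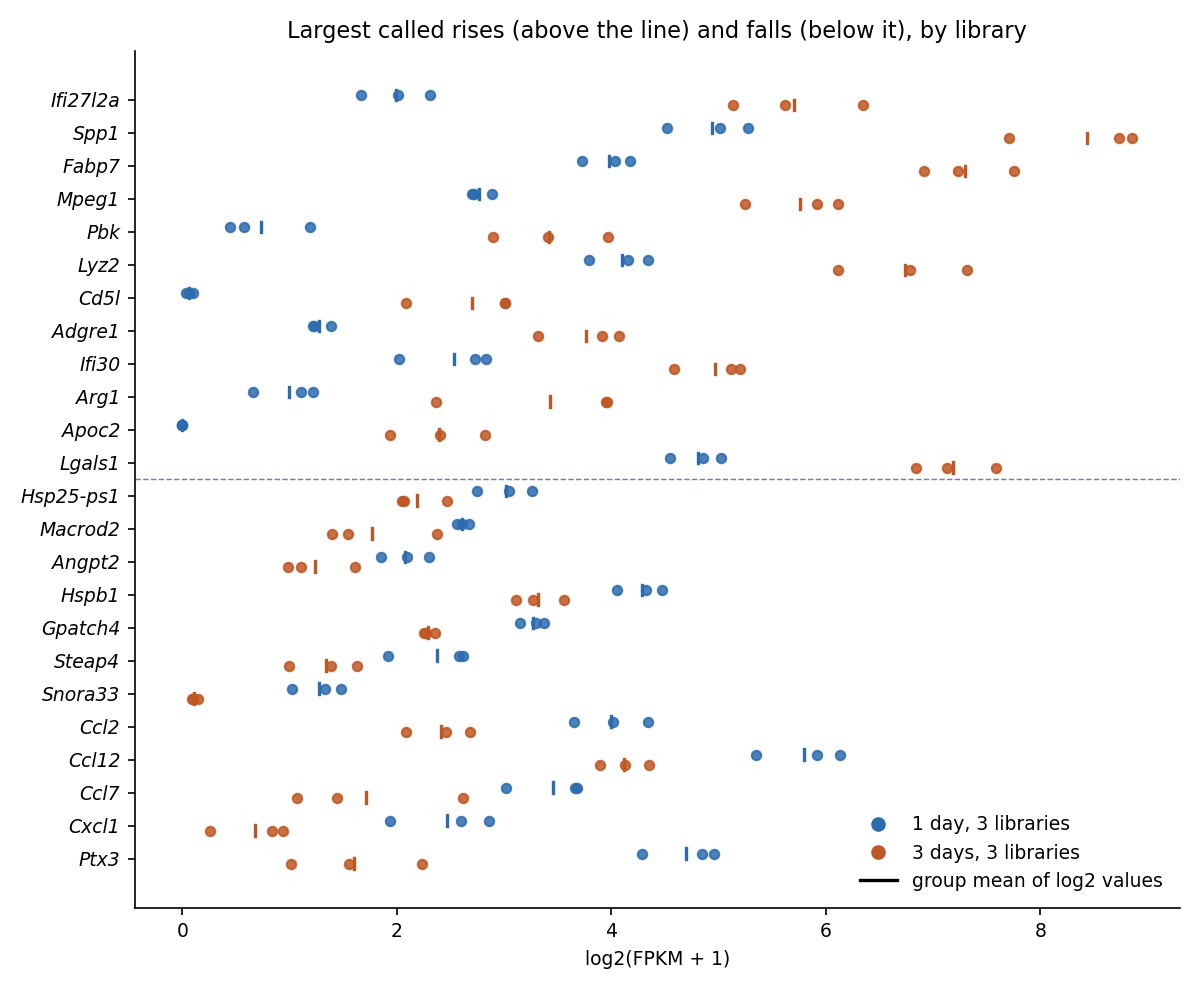
Log2(FPKM + 1) in each of the 3 libraries at 1 day and the 3 at 3 days for the 12 largest called rises (upper part) and the 12 largest called falls (lower part) among genes with a full name, with the group means as vertical marks. Only genes whose groups did not overlap were eligible, so that the gap between the points follows from the choice. Apoc2 is listed at 0 in all 3 libraries at 1 day.

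Several of the largest rises were in genes of phagocytes. Of 14 genes of homeostatic microglia, the resident phagocytes of the brain, 11 rose and 0 fell (median 1.2). Csf1r, the receptor for the survival factor of these cells, was at 12.8, 12.3 and 14.6 FPKM at 1 day and 40.9, 31.8 and 49.6 FPKM at 3 days (log2 fold change 1.54 ± 0.16, adjusted p = 2.35e-05). Tmem119, a membrane protein of microglia, was at 6.82, 5.16 and 5.36 FPKM at 1 day and 17.5, 13.8 and 15.6 FPKM at 3 days (1.3 ± 0.27, adjusted p = 0.00731). No value overlapped between the groups. In sham right, Csf1r was at 12.6 ± 0.616 FPKM and Tmem119 at 7.25 ± 1.37, close to the 1 day values. Selplg, a selectin ligand, was at 3.89, 2.87 and 2.63 FPKM at 1 day and 9.06, 8.43 and 9.66 FPKM at 3 days (1.29 ± 0.13, adjusted p = 2.38e-05). P2ry12, the ADP receptor of resting microglia, was at 8.02, 5.40 and 4.48 FPKM at 1 day and 9.56, 22.5 and 11.6 FPKM at 3 days, and its difference of 1.1 ± 0.40 did not pass the test (limma adjusted p = 0.17), with 3 day 2 far above the other 3 day libraries. Cx3cr1, the fractalkine receptor, was at 5.85, 1.49 and 11.6 FPKM at 1 day and 4.02, 3.00 and 4.51 FPKM at 3 days (-0.32 ± 0.57, limma adjusted p = 1). Its 1 day values spread from 1.49 to 11.6 FPKM and enclosed all 3 day values.

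Of 18 genes of activated microglia, 9 rose and 0 fell (median 0.76). Spp1, the secreted glycoprotein osteopontin, was at 21.9, 37.7 and 31.3 FPKM at 1 day and 463, 208 and 425 FPKM at 3 days (log2 fold change 3.5 ± 0.50, adjusted p = 4.17e-04). Each 3 day value was far above the highest 1 day value, and 3 day 2 was the lowest of them. Trem2, a lipid receptor of microglia and macrophages, was at 1.83, 1.94 and 1.79 FPKM at 1 day and 11.2, 8.41 and 11.4 FPKM at 3 days (1.98 ± 0.19, adjusted p = 1.22e-05). Gpnmb, a glycoprotein of lipid-laden phagocytes, was at 0.275, 0.472 and 0.708 FPKM at 1 day and 8.30, 2.35 and 5.43 FPKM at 3 days (1.99 ± 0.37, adjusted p = 0.00298). Both were apart between the groups, and Gpnmb varied over several-fold among the 3 day libraries. Apoe, the main lipid carrier of the brain, was at 183, 169 and 141 FPKM at 1 day and 272, 227 and 259.9 FPKM at 3 days, apart but not past the test (0.62 ± 0.20, limma adjusted p = 0.0937). Of 18 genes of monocytes and macrophages, 9 rose and 0 fell (median 0.83). Lyz2, the lysozyme of myeloid cells, was at 12.9, 19.3 and 16.9 FPKM at 1 day and 109, 68.0 and 158 FPKM at 3 days (2.64 ± 0.47, adjusted p = 0.00258). Adgre1, the macrophage antigen F4/80, was at 1.34, 1.33 and 1.61 FPKM at 1 day and 14.1, 8.94 and 15.8 FPKM at 3 days (2.49 ± 0.17, adjusted p = 8.29e-07). Arg1, the arginase of repair-type macrophages, was at 0.578, 1.32 and 1.16 FPKM at 1 day and 14.5, 4.15 and 14.6 FPKM at 3 days (2.43 ± 0.30, adjusted p = 1.09e-04). In Arg1, the 3 day 2 library stood well below the other 3 day libraries and still above all 1 day libraries. Cd68, a membrane protein of phagocyte lysosomes, was at 6.72, 8.41 and 10.3 FPKM at 1 day and 54.7, 27.4 and 47.3 FPKM at 3 days (2.18 ± 0.29, adjusted p = 2.15e-04). Lgals3, the galectin of activated macrophages, was at 2.89, 5.31 and 4.61 FPKM at 1 day and 43.1, 11.9 and 23.2 FPKM at 3 days (2.22 ± 0.34, adjusted p = 6.21e-04). Mpeg1, the pore protein perforin-2, was at 5.57, 5.49 and 6.38 FPKM at 1 day and 59.6, 37.0 and 68.1 FPKM at 3 days (2.99 ± 0.20, adjusted p = 7.96e-07), and Cd5l, a protein secreted by macrophages, at 0.0427, 0.0215 and 0.0705 FPKM at 1 day and 7.06, 3.24 and 7.03 FPKM at 3 days (2.64 ± 0.21, adjusted p = 2.32e-06). These 4 genes had their lowest 3 day value in 3 day 2. Not past the test were Ly6c2 of fresh monocytes at 0.970, 0.659 and 0.591 FPKM at 1 day and 0.522, 0.750 and 1.28 FPKM at 3 days and the mannose receptor Mrc1 at 1.51, 1.77 and 1.45 FPKM at 1 day and 2.06, 1.34 and 3.46 FPKM at 3 days.

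Of 14 tested receptors with which phagocytes bind their targets, 6 rose and 0 fell (median 0.79). Itgb5, an integrin subunit that binds bridged dead cells, was at 7.23, 6.24 and 6.80 FPKM at 1 day and 21.9, 19.8 and 24.8 FPKM at 3 days (log2 fold change 1.57 ± 0.13, adjusted p = 3.72e-06). Stab1, a scavenger receptor, was at 1.303, 1.35 and 2.16 FPKM at 1 day and 6.83, 3.35 and 7.68 FPKM at 3 days (1.37 ± 0.25, adjusted p = 0.00287). Fcgr4, an activating receptor for antibodies, was at 1.26, 2.81 and 2.13 FPKM at 1 day and 8.11, 4.10 and 6.69 FPKM at 3 days (1.24 ± 0.25, adjusted p = 0.00555). No value overlapped in these genes. Mertk, a receptor kinase for dead cells, was at 9.34, 9.43 and 9.46 FPKM at 1 day and 11.5, 8.47 and 10.7 FPKM at 3 days and did not pass the test (limma adjusted p = 1). Complement C1q, which tags debris and synapses, was called in all of its chains. C1qa was at 53.7, 61.5 and 52.5 FPKM at 1 day and 233, 159 and 208 FPKM at 3 days (1.81 ± 0.25, adjusted p = 3.58e-04). C1qb was at 58.2, 67.7 and 57.1 FPKM at 1 day and 234, 179 and 207 FPKM at 3 days (1.74 ± 0.25, adjusted p = 4.85e-04). C1qc was at 27.2, 30.4 and 24.99 FPKM at 1 day and 129, 90.4 and 106 FPKM at 3 days (1.93 ± 0.24, adjusted p = 1.20e-04). In all chains 3 day 2 was the lowest of the 3 day libraries and still far above the 1 day values. The receptor C3ar1 was at 1.31, 2.59 and 1.85 FPKM at 1 day and 11.1, 5.04 and 8.85 FPKM at 3 days (1.64 ± 0.30, adjusted p = 0.00271). The 10 other complement genes tested did not pass, among them C3 itself at 0.184, 0.359 and 1.05 FPKM at 1 day and 1.99, 0.636 and 0.492 FPKM at 3 days (limma adjusted p = 0.636) and C4b at 5.50, 5.93 and 11.7 FPKM at 1 day and 18.2, 11.4 and 18.9 FPKM at 3 days (limma adjusted p = 0.0557). Of the 14 phagocytosis receptors, 3 were called without 1 day 1, 3 day 1 or 3 day 8.

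Most lysosomal genes rose. Of 27 tested, 18 rose and 0 fell (median 0.95). In 26 of the 27, all 3 day values lay above all 1 day values, against 16.9% of all genes tested. Ctsd, the aspartic protease cathepsin D, was at 84.8, 77.1 and 91.0 FPKM at 1 day and 529, 355 and 452 FPKM at 3 days (log2 fold change 2.37 ± 0.18, adjusted p = 2.17e-06). Ctsz, a carboxypeptidase, was at 25.8, 31.2 and 35.1 FPKM at 1 day and 137, 88.1 and 118 FPKM at 3 days (1.85 ± 0.17, adjusted p = 7.96e-06). Ctsh, an aminopeptidase, was at 2.51, 2.41 and 2.24 FPKM at 1 day and 12.9, 9.69 and 13.3 FPKM at 3 days (1.92 ± 0.15, adjusted p = 1.89e-06). The spread inside each group was small against these differences. Ctsb, a cysteine protease, was at 100.2, 102 and 110.3 FPKM at 1 day and 221, 168 and 198 FPKM at 3 days (0.89 ± 0.16, adjusted p = 0.00208). The uncalled members had positive fold changes too, as the membrane proteins Lamp1 (0.55 ± 0.16, limma adjusted p = 0.07) and Lamp2 (0.40 ± 0.19, limma adjusted p = 0.396) show. In the time course, Ctsd was at 84.8 ± 10.7 FPKM in sham right, 90.0 ± 8.27 at 4 h and 839.7 ± 193 at 10 days. Among 16 genes of lipid efflux and lipid droplets, 5 rose and 0 fell (median 0.65). Plin2, the coat protein of lipid droplets, was at 3.27, 4.36 and 4.22 FPKM at 1 day and 28.6, 10.498 and 20.9 FPKM at 3 days (1.99 ± 0.27, adjusted p = 2.87e-04). Abca1, the pump that exports cholesterol, was at 3.88, 3.45 and 5.09 FPKM at 1 day and 12.4, 7.32 and 12.5 FPKM at 3 days (1.17 ± 0.30, adjusted p = 0.0268). Plin3, another droplet coat, was at 3.48, 3.41 and 5.09 FPKM at 1 day and 9.54, 7.63 and 8.78 FPKM at 3 days (0.96 ± 0.20, adjusted p = 0.00721). The values were apart in all of them. Pltp, a phospholipid transfer protein also made by brain endothelium, was at 5.55, 3.59 and 6.99 FPKM at 1 day and 9.15, 12.8 and 12.2 FPKM at 3 days (0.98 ± 0.27, adjusted p = 0.0449). Apoc2, the cofactor of lipoprotein lipase, was listed at 0 in all 3 libraries at 1 day and was at 4.29, 2.84 and 6.08 FPKM at 3 days, so that no fold is given. Sterol synthesis stood on the other side. Its 18 tested genes had a median of -0.39, with 17 values below 0, where 57.8% of all genes tested lay above 0. In 12 of them all 3 day values lay below all 1 day values, against 4.86% of all genes tested. A single gene passed the test. That gene was Insig1, which holds the sterol sensor in the endoplasmic reticulum, at 22.5, 25.5 and 25.9 FPKM at 1 day and 15.7, 19.2 and 15.6 FPKM at 3 days (-0.53 ± 0.12, adjusted p = 0.0138). Of the 16 lipid genes, 3 were called without 1 day 1, 1 day 3, 3 day 1 or 3 day 8. Abca1 was not called without 1 day 1, 1 day 3, 3 day 1 or 3 day 8 (adjusted p = 0.101 to 0.149), nor Pltp without 1 day 1, 1 day 3, 3 day 1, 3 day 2 or 3 day 8 (adjusted p = 0.0558 to 0.244). Insig1 was not called without 1 day 3, 1 day 4, 3 day 1 or 3 day 8 (adjusted p = 0.0578 to 0.0925).

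**Figure D3:**
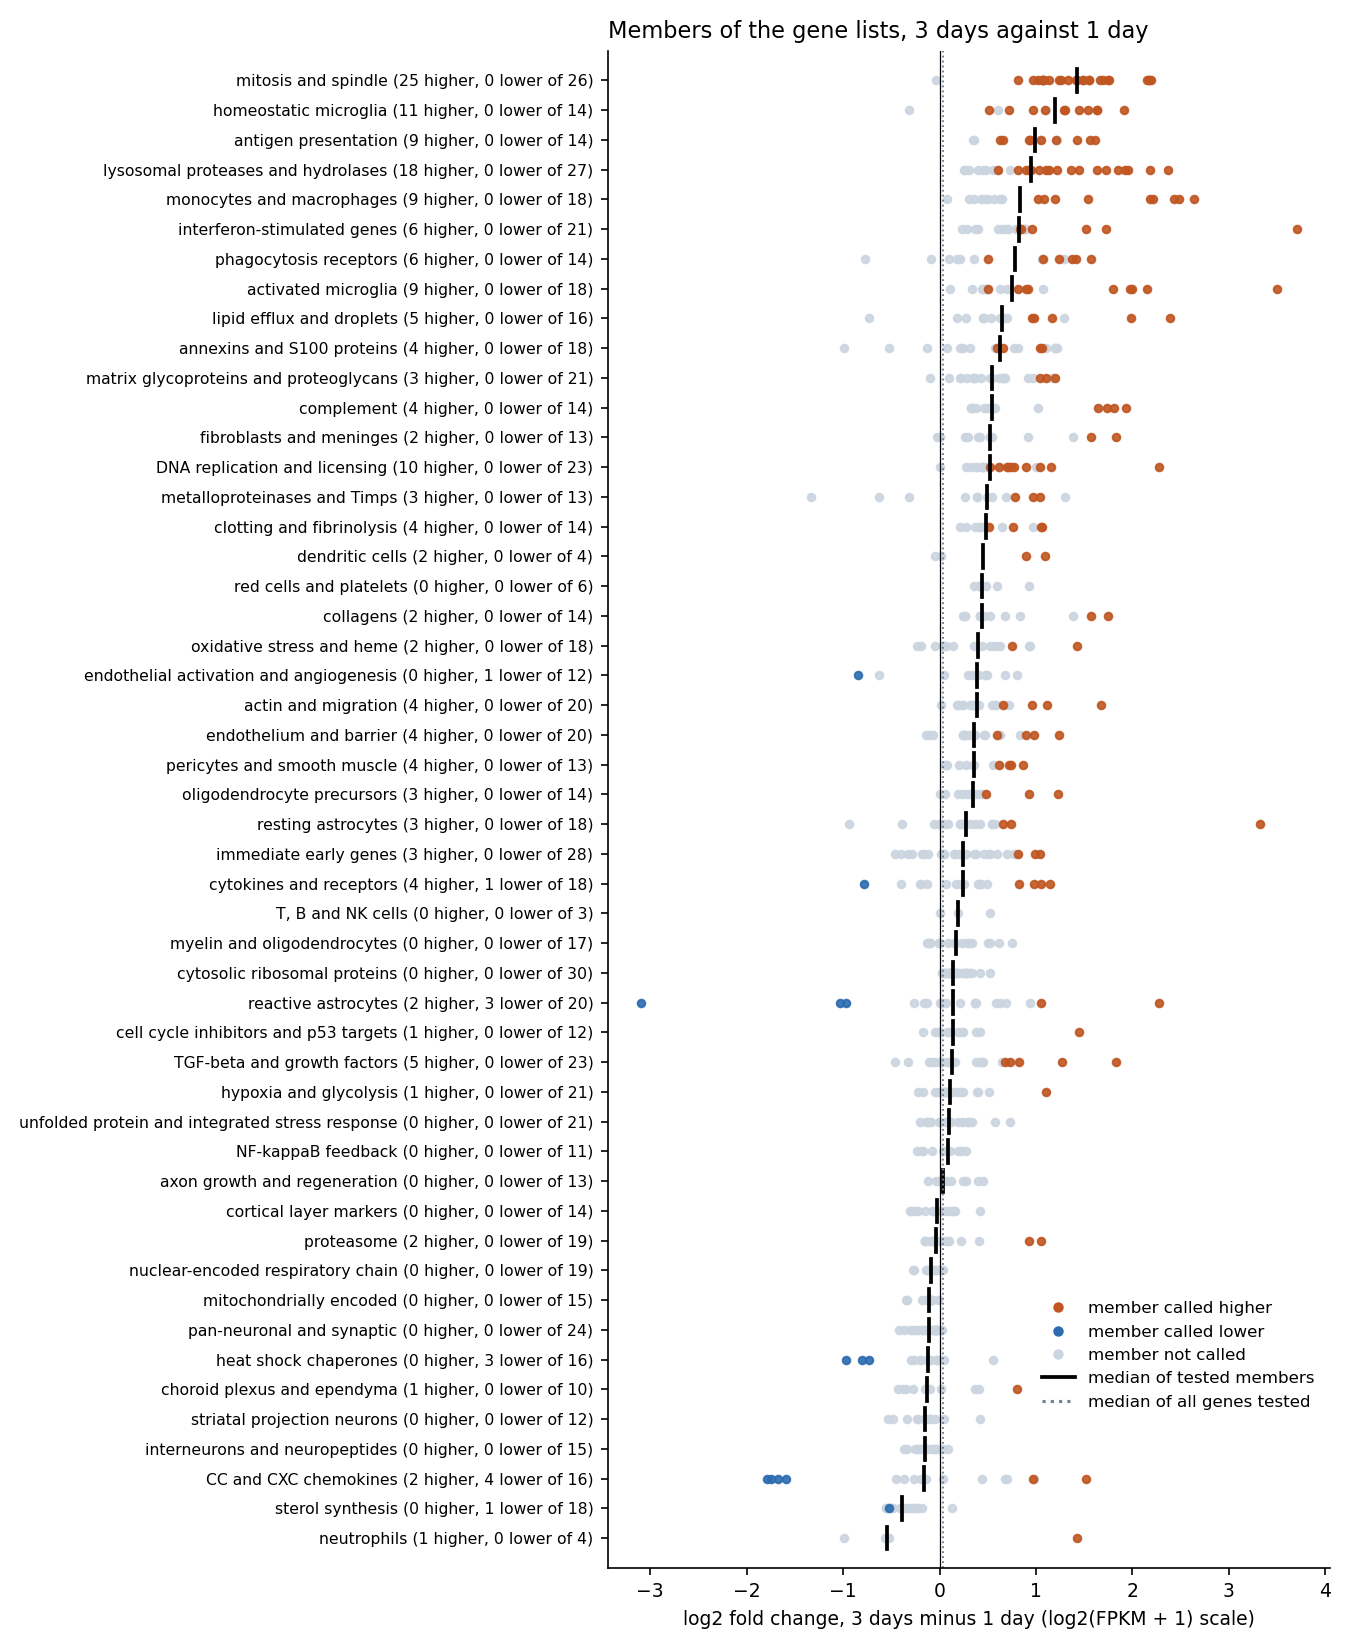
Log2 fold change from 1 day to 3 days (horizontal axis) of every tested member of the 50 gene lists, with called members in colour, the list median as a black bar and the median of all genes tested (0.03) as a dotted line. Mitosis, microglia, antigen presentation and lysosomal lists lie to the right, and sterol synthesis and neutrophils have the lowest medians.

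After Ptx3, the largest falls were in chemokines, signals that call leukocytes. Of 16 tested CC and CXC chemokines, 4 fell and 2 rose, and the median was -0.16 and turned positive with library weights or without 1 day 4 and 3 day 2. Ccl2, the main attractant of monocytes, was at 11.5, 19.2 and 15.1 FPKM at 1 day and 4.504, 3.25 and 5.42 FPKM at 3 days (log2 fold change -1.59 ± 0.29, adjusted p = 0.00287). Ccl7, a further ligand of the same receptor, was at 7.12, 11.9 and 11.7 FPKM at 1 day and 1.72, 1.09 and 5.12 FPKM at 3 days (-1.75 ± 0.33, adjusted p = 0.00364). Ccl12 was at 39.7, 69.0 and 59.3 FPKM at 1 day and 16.4, 13.8 and 19.4 FPKM at 3 days (-1.67 ± 0.43, adjusted p = 0.0304). Cxcl1, an attractant of neutrophils, was at 2.83, 6.28 and 5.07 FPKM at 1 day and 0.787, 0.194 and 0.914 FPKM at 3 days (-1.79 ± 0.25, adjusted p = 2.87e-04). In each of them, all 1 day values were above all 3 day values, and 1 day 1 was the lowest 1 day library. Ccl2 (chr11:82035571-82037453, plus strand), Ccl7 (chr11:82045712-82047525, plus strand) and Ccl12 (chr11:82101845-82103400, plus strand, all GRCm38) are similar in sequence and neighbours on chromosome 11, so that reads could be shared among them. Ccl8, a chemokine of tissue macrophages, went the other way, at 0.127, 0.533 and 0.149 FPKM at 1 day and 2.39, 1.31 and 4.98 FPKM at 3 days (1.52 ± 0.28, adjusted p = 0.00283). Cxcl16, the transmembrane chemokine of macrophages, was at 0.780, 1.201 and 1.47 FPKM at 1 day and 3.39, 2.47 and 3.72 FPKM at 3 days (0.96 ± 0.17, adjusted p = 0.00195). Ccl3, a chemokine of activated microglia, did not pass the test, at 2.92, 6.37 and 3.07 FPKM at 1 day and 5.25, 1.82 and 2.08 FPKM at 3 days (limma adjusted p = 0.973). Neither did the related Ccl4, at 4.26, 7.08 and 3.24 FPKM at 1 day and 4.298, 2.51 and 2.77 FPKM at 3 days (limma adjusted p = 0.816). Of 18 cytokines and receptors, 4 rose and 1 fell. The gene that fell was Il11, a cytokine of the interleukin 6 family, at 1.24, 1.205 and 1.44 FPKM at 1 day and 0.534, 0.266 and 0.208 FPKM at 3 days (-0.79 ± 0.12, adjusted p = 7.80e-04). Among the genes that rose were receptors. Tnfrsf1b, the receptor for tumor necrosis factor on myeloid cells, was at 1.22, 1.27 and 1.52 FPKM at 1 day and 4.42, 2.86 and 4.46 FPKM at 3 days (1.06 ± 0.15, adjusted p = 4.17e-04), and Csf2rb, the shared chain of the GM-CSF receptor, at 0.535, 0.853 and 1.13 FPKM at 1 day and 3.18, 1.91 and 2.82 FPKM at 3 days (0.98 ± 0.15, adjusted p = 6.93e-04). Il10ra, the receptor for interleukin 10, was at 1.29, 0.719 and 0.992 FPKM at 1 day and 2.37, 2.06 and 7.28 FPKM at 3 days (1.15 ± 0.27, adjusted p = 0.0187), with 3 day 8 far above the others and a fold change of 0.69 without it. Il1b was at 0.790, 1.13 and 0.848 FPKM at 1 day and 0.465, 0.351 and 1.34 FPKM at 3 days and did not pass the test (limma adjusted p = 1). Tnf and Il6 did not reach the filter of 1 FPKM in 3 libraries. Of 11 feedback genes of NF-kappaB, 0 were called by limma at an adjusted p of 0.05, at a median of 0.09. With a pseudocount of 0.1 in place of 1, 3 of the 16 chemokines were called, and Ccl12, Ccl2 (limma adjusted p = 0.102) and Ccl7 (adjusted p = 0.105) were not. Ccl7 and Ccl12 also lost their call without 1 day 4 and 3 day 2 together. Cxcl1 kept its call in all 18 alternatives. Ccl12 was not called without 1 day 3, 1 day 4, 3 day 1, 3 day 2 or 3 day 8 (adjusted p = 0.0748 to 0.143), nor Il10ra without 1 day 3 or 1 day 4 (adjusted p = 0.0518 to 0.0962).

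Of 21 interferon-stimulated genes tested, 6 rose and 0 fell (median 0.82). In 16 of the 21, all 3 day values lay above all 1 day values, against 16.9% of all genes tested. Ifi27l2a (ENSMUSG00000079017, chr12:103442167-103443680, minus strand, GRCm38), an interferon-induced membrane protein, had the largest rise of all genes with a full name, at 3.03, 3.95 and 2.17 FPKM at 1 day and 48.1, 34.1 and 80.4 FPKM at 3 days (log2 fold change 3.70 ± 0.35, adjusted p = 8.38e-06). Bst2, the tethering protein tetherin, was at 7.85, 7.24 and 8.77 FPKM at 1 day and 32.2, 18 and 39.9 FPKM at 3 days (1.73 ± 0.38, adjusted p = 0.0111). Oas1a, a sensor of double-stranded RNA, was at 1.57, 1.07 and 1.16 FPKM at 1 day and 5.72, 3.64 and 7.57 FPKM at 3 days (1.51 ± 0.23, adjusted p = 6.29e-04). Irf7, the factor that amplifies interferon, was at 0.764, 0.817 and 0.768 FPKM at 1 day and 2.12, 1.51 and 3.12 FPKM at 3 days (0.84 ± 0.20, adjusted p = 0.0192). The groups were apart in these genes, with 3 day 8 highest and 3 day 2 lowest at 3 days. Zbp1, a sensor of nucleic acids, was at 0.520, 0.389 and 0.583 FPKM at 1 day and 1.74, 1.07 and 3.32 FPKM at 3 days (0.96 ± 0.20, adjusted p = 0.00722), and Gbp3, a guanylate-binding protein, at 4.52, 5.53 and 5.63 FPKM at 1 day and 10.4, 6.96 and 14.3 FPKM at 3 days (0.85 ± 0.24, adjusted p = 0.0477). Isg15, a ubiquitin-like protein, was at 9.15, 13.2 and 9.09 FPKM at 1 day and 21.5, 13.1 and 24.2 FPKM at 3 days. It did not pass the test (limma adjusted p = 0.66), and its 3 day 2 value lay within the 1 day range. Of the 21 interferon-stimulated genes, 3 were called without 1 day 3, 3 day 1 or 3 day 8 and 11 were called without 3 day 2. Bst2 was not called without 1 day 3, 3 day 1 or 3 day 8 (adjusted p = 0.052 to 0.0832), nor Irf7 without 1 day 1, 1 day 3, 1 day 4, 3 day 1 or 3 day 8 (adjusted p = 0.0556 to 0.14). Gbp3 was not called without 1 day 1, 1 day 3, 1 day 4, 3 day 1 or 3 day 8 (adjusted p = 0.0837 to 0.309).

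Of 14 genes of antigen presentation, 9 rose and 0 fell (median 0.99). All 14 had their 3 day values above all 1 day values, against 16.9% of all genes tested. B2m, the light chain of class I molecules, was at 163, 172 and 136 FPKM at 1 day and 452, 321 and 521 FPKM at 3 days (log2 fold change 1.43 ± 0.21, adjusted p = 5.65e-04). The class I heavy chain H2-K1 was at 7.96, 7.97 and 9.83 FPKM at 1 day and 31.4, 21.8 and 32.9 FPKM at 3 days (1.62 ± 0.21, adjusted p = 1.55e-04). The heavy chain H2-D1 was at 17.9, 16.01 and 18.1 FPKM at 1 day and 58.2, 42.4 and 59.8 FPKM at 3 days (1.56 ± 0.19, adjusted p = 1.04e-04). These chains are near-identical to each other and to other H2 genes, and the split of reads between them is uncertain. Psmb8, a subunit of the immunoproteasome that cuts peptides for class I, was at 1.85, 1.94 and 1.99 FPKM at 1 day and 5.28, 4.01 and 6.04 FPKM at 3 days (1.05 ± 0.20, adjusted p = 0.00404). Psmb9, another such subunit, was at 0.297, 0.446 and 0.394 FPKM at 1 day and 1.53, 1.36 and 2.00 FPKM at 3 days (0.93 ± 0.16, adjusted p = 0.0021). They were the called members among 19 proteasome genes, whose median was -0.04. Cd74, the chaperone of class II molecules, was at 1.91, 2.13 and 3.32 FPKM at 1 day and 3.95, 4.62 and 16.8 FPKM at 3 days. It did not pass the test (1.22 ± 0.45, limma adjusted p = 0.178), with 3 day 8 far above the other libraries. The interferon-stimulated response element is the site of interferon regulatory factors and of ISGF3. Here it is taken as the letters GAAA, any 2 bases and GAAA, or the same on the other strand. It is shown in capitals in 4 promoters of called genes of both groups, those with the smallest adjusted p that held it before the start.
B2m (chr2:122147540-122147565, plus strand): aagaacatGAAACTGAAAatgggaaa
Oas1a (chr5:120907526-120907553, minus strand): cttctcggGAAATGGAAACTGAAAatct
Bst2 (chr8:71537579-71537610, minus strand): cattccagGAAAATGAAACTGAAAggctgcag
Gbp3 (chr3:142559991-142560022, plus strand): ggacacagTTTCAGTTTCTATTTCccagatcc
Of all promoters with an entry, 3.49% held this motif on either strand, and of the 10096 of tested genes 2.96%. Of the 540 genes called higher with an entry, which include called members of both groups, 7.59% held it, and 0 of 13 called lower did. Among the antigen presentation genes with an entry, B2m was the only 1 of 10 that held it, and 11 of 16 interferon-stimulated genes did. Only 16 of 21 interferon-stimulated and 10 of 14 antigen presentation genes had an entry. These counts describe the genes with an entry alone and are not compared with all promoters.

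Astrocyte genes moved in both directions. Of 20 genes of reactive astrocytes, 2 rose and 3 fell (median 0.14). Vim, the filament vimentin, was at 9.12, 13.3 and 21.2 FPKM at 1 day and 82.4, 58.3 and 72.9 FPKM at 3 days (log2 fold change 2.28 ± 0.24, adjusted p = 2.45e-05). Gfap, the astrocyte filament, was at 149, 204 and 289.5 FPKM at 1 day and 517, 362 and 424 FPKM at 3 days (1.05 ± 0.26, adjusted p = 0.0218). In both, 1 day 1 was the lowest library, and all 3 day values were above all 1 day values. Ptx3, a pentraxin secreted in acute inflammation, had the largest fall of all (ENSMUSG00000027832, chr3:66219910-66225805, plus strand, GRCm38), at 18.5, 27.8 and 30.1 FPKM at 1 day and 3.71, 1.02 and 1.94 FPKM at 3 days (-3.10 ± 0.27, adjusted p = 5.32e-06). Steap4, a metalloreductase of inflamed tissue, was at 2.78, 5.14 and 4.98 FPKM at 1 day and 2.08, 0.994 and 1.61 FPKM at 3 days (-1.04 ± 0.22, adjusted p = 0.00844). The remaining fall was Hspb1, described with the chaperones. Lcn2, Serpina3n, Timp1 and Tgm1, acute phase and remodelling genes of the injured brain, did not pass the test. Lcn2 was at 15.9, 34.2 and 17.4 FPKM at 1 day and 42.4, 25.5 and 19.5 FPKM at 3 days (limma adjusted p = 0.869) and Serpina3n at 39.2, 67.8 and 87.8 FPKM at 1 day and 165, 100.4 and 101 FPKM at 3 days (adjusted p = 0.0812). Timp1 was at 14.7, 23.7 and 25.9 FPKM at 1 day and 33.8, 25.6 and 46.7 FPKM at 3 days (adjusted p = 0.757) and Tgm1 at 9.69, 14.8 and 18.7 FPKM at 1 day and 27.4, 16.9 and 23.3 FPKM at 3 days (adjusted p = 0.122). Of these, Serpina3n alone had no overlap between the groups. Among 18 genes of resting astrocytes and radial glia, 3 rose and 0 fell (median 0.28). Fabp7, the brain fatty acid binding protein of radial glia and astrocytes, was at 12.2, 17.1 and 15.3 FPKM at 1 day and 149, 119.8 and 215 FPKM at 3 days (3.32 ± 0.31, adjusted p = 6.99e-06), the third largest rise. It was below sham right at 1 day and above it at 3 days, since Fabp7 was at 33.7 ± 3.27 FPKM in sham right, 8.62 ± 0.851 at 4 h and 39.5 ± 13.9 at 10 days. Kcnj10, a potassium channel of astrocyte endfeet, was at 31.6, 26.1 and 36.4 FPKM at 1 day and 50.9, 54.6 and 52.4 FPKM at 3 days (0.74 ± 0.14, adjusted p = 0.003), and the water channel Aqp4 at 28.9, 30.6 and 39.4 FPKM at 1 day and 52.4, 43.5 and 61.4 FPKM at 3 days (0.65 ± 0.17, adjusted p = 0.0314). The glutamate transporter Slc1a2 was at 158, 153 and 158 FPKM at 1 day and 133, 147 and 26.9 FPKM at 3 days, with all 3 day values lower, and did not pass the test (-0.94 ± 0.42, limma adjusted p = 0.33). Of the 20 reactive astrocyte genes, 3 were called without 1 day 3 and 8 were called without 1 day 4. Gfap was not called without 1 day 1, 1 day 3, 3 day 1 or 3 day 8 (adjusted p = 0.0778 to 0.143), nor Steap4 without 1 day 3 (adjusted p = 0.0565). Aqp4 was not called without 1 day 1, 1 day 3, 3 day 1 or 3 day 8 (adjusted p = 0.102 to 0.21).

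Of 16 heat shock chaperones tested, 3 fell and 0 rose (median -0.12). Hspb1, the small chaperone Hsp25, was at 15.6, 19.1 and 21.2 FPKM at 1 day and 10.8, 7.66 and 8.63 FPKM at 3 days (log2 fold change -0.97 ± 0.17, adjusted p = 0.00192). The inducible Hsp70 gene Hspa1a was at 10.6, 10.07 and 11.4 FPKM at 1 day and 8.33, 5.04 and 5.28 FPKM at 3 days (-0.73 ± 0.18, adjusted p = 0.0222). Its neighbour Hspa1b was at 11.7, 9.74 and 12.8 FPKM at 1 day and 8.75, 4.89 and 5.10 FPKM at 3 days (-0.81 ± 0.19, adjusted p = 0.019). Hspa1a and Hspa1b code for near-identical proteins and can share reads, and so can Hspb1 and its pseudogene Hsp25-ps1, at 5.74, 8.60 and 7.26 FPKM at 1 day and 4.52, 3.13 and 3.197 FPKM at 3 days (-0.83 ± 0.18, adjusted p = 0.0113). All 3 day values were below all 1 day values in each of them. The constitutive Hspa8 was at 208, 206 and 229.5 FPKM at 1 day and 186, 192 and 184 FPKM at 3 days (-0.19 ± 0.13, limma adjusted p = 0.746) and Hsp90ab1 at 315, 297 and 388 FPKM at 1 day and 318, 321 and 337 FPKM at 3 days (-0.03 ± 0.18, adjusted p = 1). Of 21 genes of the unfolded protein and integrated stress response, 0 were called by limma (median 0.10). Among 18 genes of oxidative stress and heme, 2 rose (11.1%, against 5.07% of all genes tested). Ftl1, the ferritin light chain, was at 78.3, 89.4 and 81.5 FPKM at 1 day and 289, 189.6 and 204 FPKM at 3 days (1.42 ± 0.32, adjusted p = 0.0112) and the iron exporter Slc40a1 at 0.916, 0.529 and 0.588 FPKM at 1 day and 1.797, 1.63 and 2.02 FPKM at 3 days (0.75 ± 0.16, adjusted p = 0.00722). Ftl1 has processed pseudogenes in the same file, among which reads could be split. Hmox1, the heme oxygenase, was at 25.7, 39.8 and 45.2 FPKM at 1 day and 107, 35.6 and 86.0 FPKM at 3 days and did not pass the test (0.92 ± 0.39, limma adjusted p = 0.279), with 3 day 2 inside the 1 day range. Of 21 genes of hypoxia and glycolysis, 1 rose, a share near the 5.07% of all genes tested. It was the lactate exporter Slc16a3 at 0.796, 0.837 and 0.939 FPKM at 1 day and 3.86, 2.36 and 2.84 FPKM at 3 days (1.1 ± 0.14, adjusted p = 1.64e-04). Of 28 immediate early genes, 3 rose (10.7%, against 5.07% of all genes tested) and 0 fell (median 0.25, negative without 3 day 8). Arc, a synaptic gene of active neurons, was at 46.9, 24.5 and 34.7 FPKM at 1 day and 57.3, 78.7 and 71.8 FPKM at 3 days (0.99 ± 0.26, adjusted p = 0.0341). Btg2 was at 4.37, 3.16 and 3.84 FPKM at 1 day and 6.77, 7.71 and 13.02 FPKM at 3 days (1.04 ± 0.25, adjusted p = 0.0171) and the phosphatase Dusp1 at 11.97, 7.68 and 8.37 FPKM at 1 day and 14.7, 18.7 and 17.6 FPKM at 3 days (0.81 ± 0.17, adjusted p = 0.00644). In sham right they were at 82.7 ± 10.9, 9.13 ± 1.47 and 16.4 ± 1.34 FPKM. Fos, the activity-induced factor, did not pass the test, at 10.8, 8.91 and 11.1 FPKM at 1 day and 9.73, 13.9 and 25.6 FPKM at 3 days (limma adjusted p = 0.471). Nor did Nr4a1, at 25.3, 14.5 and 19.7 FPKM at 1 day and 22.9, 36.0 and 39.9 FPKM at 3 days (limma adjusted p = 0.105), or the stress factor Atf3, at 2.69, 3.47 and 3.09 FPKM at 1 day and 4.64, 1.99 and 3.17 FPKM at 3 days (limma adjusted p = 1). Of the 16 chaperones, 1 was called without 1 day 1, 1 day 4, 3 day 2 or 3 day 8. Of the 28 immediate early genes, 1 was called without 1 day 3 or 3 day 8 and 6 were called without 3 day 1. Without 1 day 4 and 3 day 2 together, 0 of these 28 genes were called, and 0 were called with the replicate number as a block, so that Arc, Btg2 and Dusp1 each lost their call there. Of the 21 hypoxia and glycolysis genes, 2 were called without 3 day 2. Of the 18 oxidative stress and heme genes, 1 was called without 1 day 1 or 3 day 1 and 4 were called without 3 day 2. Hspa1a was not called without 1 day 1, 1 day 3, 1 day 4, 3 day 2 or 3 day 8 (adjusted p = 0.0563 to 0.137), nor Hspa1b without 1 day 1, 1 day 4, 3 day 2 or 3 day 8 (adjusted p = 0.0795 to 0.126). Hsp25-ps1 was not called without 1 day 3 or 3 day 8 (adjusted p = 0.071 to 0.0764), nor Ftl1 without 1 day 1 or 3 day 1 (adjusted p = 0.0534 to 0.0709). Arc was not called without 1 day 3, 1 day 4, 3 day 2 or 3 day 8 (adjusted p = 0.0808 to 0.207), nor Btg2 without 1 day 3 or 3 day 8 (adjusted p = 0.0913 to 0.129).

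**Figure D4:**
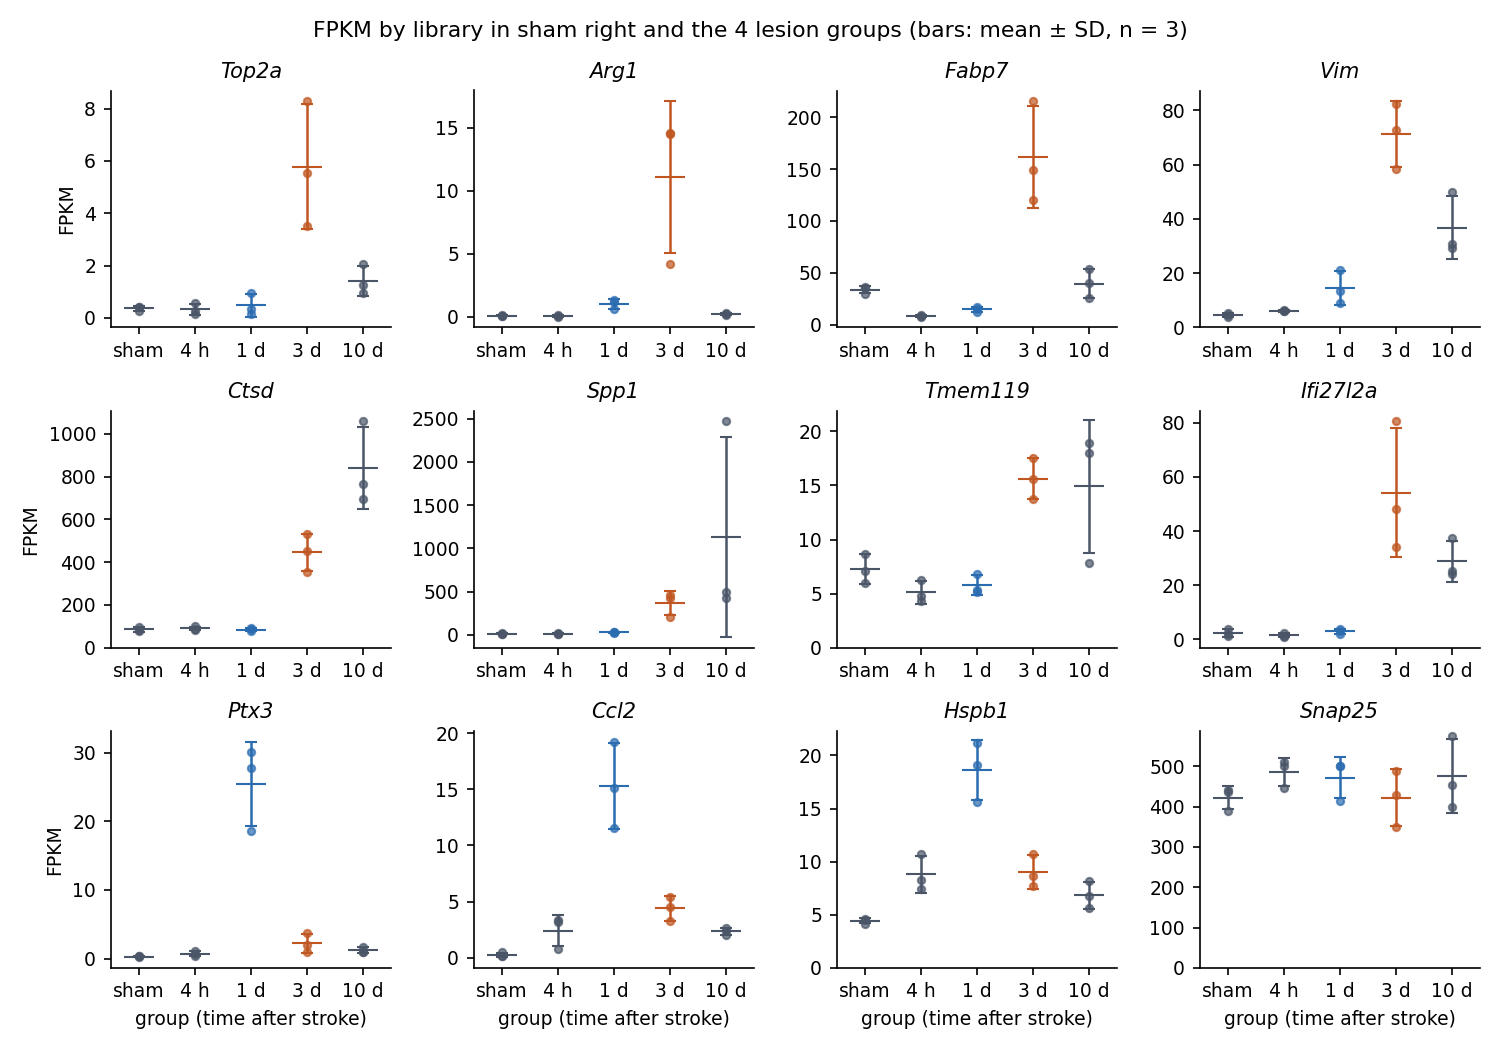
FPKM of 12 genes in each library of sham right and of the lesion at 4 h, 1 day, 3 days and 10 days, with mean ± SD (n = 3). Top2a, Arg1, Fabp7 and Vim are highest at 3 days, Ctsd and Spp1 at 10 days, and Ptx3, Ccl2 and Hspb1 at 1 day, while Snap25 keeps a similar level.

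Of 20 genes of endothelium and the blood-brain barrier, 4 rose and 0 fell (median 0.36). Itm2a, a membrane protein of endothelial cells, was at 24.5, 18.3 and 16.04 FPKM at 1 day and 42.8, 51.1 and 47.5 FPKM at 3 days (log2 fold change 1.24 ± 0.19, adjusted p = 7.52e-04). Tek, the angiopoietin receptor that keeps vessels stable, was at 2.63, 2.31 and 2.94 FPKM at 1 day and 3.78, 4.42 and 5.36 FPKM at 3 days (0.60 ± 0.16, adjusted p = 0.0413). The related Tie1 was at 1.25, 1.06 and 1.83 FPKM at 1 day and 2.93, 3.31 and 4.05 FPKM at 3 days (0.90 ± 0.24, adjusted p = 0.042). Itm2a, Tek and Tie1 had no overlap between the groups. Angpt2, a ligand of Tek, fell, at 2.60, 3.92 and 3.26 FPKM at 1 day and 1.16, 0.983 and 2.06 FPKM at 3 days (-0.84 ± 0.18, adjusted p = 0.0103). The tight junction gene Cldn5 was at 28.0, 21.6 and 16.4 FPKM at 1 day and 38.5, 38.2 and 40.2 FPKM at 3 days, apart but not past the test (0.83 ± 0.36, limma adjusted p = 0.306). Of 13 genes of pericytes and smooth muscle, 4 rose, among them Ndufa4l2 (0.72 ± 0.18). Rgs5, a pericyte signalling regulator, was at 23.6, 22.0 and 19.9 FPKM at 1 day and 32.8, 34.7 and 34.6 FPKM at 3 days (0.62 ± 0.16, adjusted p = 0.0274). The contractile gene Myl9 was at 9.64, 6.81 and 7.48 FPKM at 1 day and 17.0, 17.0 and 12.02 FPKM at 3 days (0.86 ± 0.21, adjusted p = 0.0246). Tagln, an actin-binding protein of smooth muscle, was at 6.50, 5.79 and 8.95 FPKM at 1 day and 11.2, 12.3 and 13.7 FPKM at 3 days (0.75 ± 0.21, adjusted p = 0.0463). These genes were apart between the groups by small margins. Pdgfrb, the growth factor receptor of pericytes, was at 2.57, 2.39 and 3.08 FPKM at 1 day and 2.92, 3.11 and 4.41 FPKM at 3 days (limma adjusted p = 0.812). Of 14 clotting and fibrinolysis genes, 4 rose. Plau, the plasminogen activator urokinase, was at 2.13, 1.74 and 2.21 FPKM at 1 day and 3.93, 3.35 and 5.27 FPKM at 3 days (0.76 ± 0.17, adjusted p = 0.0123). Tissue factor F3 was at 15.0, 15.1 and 18.6 FPKM at 1 day and 21.1, 21.2 and 28.6 FPKM at 3 days (0.51 ± 0.13, adjusted p = 0.0341), and Anxa2, a binding site for plasminogen, at 7.30, 8.41 and 10.7 FPKM at 1 day and 21.7, 13.3 and 24.6 FPKM at 3 days (1.06 ± 0.22, adjusted p = 0.00736). All called genes of the vessel and clotting lists named here were apart between the groups. Of the 20 endothelial genes, 1 was called without 1 day 1, 1 day 3, 3 day 2 or 3 day 8 and 2 were called without 3 day 1. Of the 13 mural cell genes, 2 were called without 1 day 1, 0 were called without 1 day 3 or 3 day 1 and 1 was called without 1 day 4, 3 day 2 or 3 day 8. Of the 14 clotting genes, 2 were called without 1 day 3 and 1 was called without 3 day 8. Tie1 was not called without 1 day 1, 1 day 3, 3 day 1, 3 day 2 or 3 day 8 (adjusted p = 0.0724 to 0.212), nor Tek without 1 day 1, 1 day 3, 1 day 4, 3 day 2 or 3 day 8 (adjusted p = 0.0546 to 0.246). Angpt2 was not called without 1 day 3 or 3 day 1 (adjusted p = 0.0564 to 0.0681), nor Ndufa4l2 without 1 day 3, 1 day 4, 3 day 1 or 3 day 8 (adjusted p = 0.0725 to 0.125). Rgs5 was not called without any 1 of the 6 libraries (adjusted p = 0.0581 to 0.113), nor Myl9 without 1 day 3, 1 day 4, 3 day 1 or 3 day 2 (adjusted p = 0.0791 to 0.126). Tagln was not called without 1 day 1, 1 day 3, 3 day 1, 3 day 2 or 3 day 8 (adjusted p = 0.0847 to 0.225), nor Plau without 1 day 3 or 3 day 8 (adjusted p = 0.0702 to 0.0952). F3 was not called without 1 day 1, 1 day 3 or 3 day 8 (adjusted p = 0.156 to 0.245), nor Anxa2 without 3 day 8 (adjusted p = 0.0598).

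Of 14 collagens, 2 rose (14.3%, against 5.07% of all genes tested), both fibrillar chains of scar tissue. Col1a1, with the values given above, rose by 1.57 ± 0.40 (adjusted p = 0.0259). Col3a1 was at 0.532, 0.361 and 0.907 FPKM at 1 day and 1.803, 3.597 and 10.7 FPKM at 3 days (1.75 ± 0.38, adjusted p = 0.0096). The groups were apart, but 3 day 8 was several-fold above the other 3 day libraries, and without it the fold change of Col1a1 was 0.95. Col4a1 of the basement membrane was at 4.14, 4.86 and 7.39 FPKM at 1 day and 8.76, 6.78 and 12.8 FPKM at 3 days (limma adjusted p = 0.478). The 15 fibroblast and meningeal genes summed to 44.8, 42.0 and 50.2 FPKM at 1 day and 117, 94.2 and 177 FPKM at 3 days. Much of each sum was the single gene Igfbp2, so that the sum does not stand for the list as a whole. Of the 13 tested, 2 rose, and the part of these genes in the collagen result was not tested. Igfbp2, an insulin-like growth factor binding protein on that list, was at 21.2, 21.5 and 25.7 FPKM at 1 day and 91.3, 66.9 and 95.2 FPKM at 3 days (1.83 ± 0.42, adjusted p = 0.0146). Among matrix glycoproteins, 3 of 21 rose (14.3%, against 5.07% of all genes tested). Fibronectin Fn1 was at 3.96, 3.69 and 5.08 FPKM at 1 day and 9.92, 8.16 and 15.8 FPKM at 3 days (1.19 ± 0.25, adjusted p = 0.00835), Ecm1 at 1.11, 1.08 and 1.83 FPKM at 1 day and 5.01, 2.54 and 4.83 FPKM at 3 days (1.11 ± 0.21, adjusted p = 0.00347) and Sparc, a collagen-binding protein, at 44.0, 29.3 and 38.4 FPKM at 1 day and 76.7, 66.2 and 88.4 FPKM at 3 days (1.04 ± 0.18, adjusted p = 0.00235). Tenascin Tnc was at 0.878, 1.15 and 2.50 FPKM at 1 day and 2.62, 1.54 and 4.48 FPKM at 3 days (limma adjusted p = 0.196). Of 13 metalloproteinases and inhibitors, Mmp2 rose, at 0.372, 0.295 and 0.471 FPKM at 1 day and 1.398, 1.42 and 2.40 FPKM at 3 days (0.97 ± 0.18, adjusted p = 0.00298), and so did its activator Mmp14, at 1.11, 0.895 and 1.57 FPKM at 1 day and 2.31, 1.91 and 4.38 FPKM at 3 days (0.78 ± 0.18, adjusted p = 0.0142). Without 3 day 8 the fold change of Mmp14 was 0.52. Adam8, a metalloproteinase of leukocytes, was at 1.24, 1.58 and 2.04 FPKM at 1 day and 8.13, 1.92 and 4.77 FPKM at 3 days (1.04 ± 0.29, adjusted p = 0.0477). Its 3 day 2 value lay within the 1 day range, and without 3 day 1 its fold change was 0.66. In the growth factor list, 5 of 23 rose (median 0.13). Tgfb1 was at 0.702, 0.777 and 0.951 FPKM at 1 day and 2.21, 1.63 and 2.87 FPKM at 3 days (0.82 ± 0.13, adjusted p = 9.63e-04), its receptors Tgfbr1 and Tgfbr2 rose by 0.73 ± 0.14 and 0.68 ± 0.14, and its induced target Tgfbi was at 1.26, 1.31 and 2.80 FPKM at 1 day and 4.58, 3.59 and 9.85 FPKM at 3 days (1.27 ± 0.29, adjusted p = 0.0123). Among 18 annexins and S100 proteins 4 rose, with Anxa3 rising by 0.66 ± 0.18 and S100a4 at 4.38, 7.80 and 7.54 FPKM at 1 day and 17.6, 10.3 and 15.8 FPKM at 3 days (1.04 ± 0.24, adjusted p = 0.0132) and Anxa5, which binds exposed phosphatidylserine, at 30.6, 31.7 and 34.4 FPKM at 1 day and 53.6, 43.5 and 50.9 FPKM at 3 days (0.59 ± 0.14, adjusted p = 0.0157). Among 20 actin genes 4 rose, among them Lcp1 (0.96 ± 0.26) and Lsp1 (0.66 ± 0.13) of leukocytes. Capg, a filament capping protein of macrophages, was at 1.05, 1.404 and 1.34 FPKM at 1 day and 8.25, 3.85 and 7.39 FPKM at 3 days (1.67 ± 0.18, adjusted p = 2.38e-05), and Cotl1 at 17.2, 15.4 and 20.8 FPKM at 1 day and 44.5, 32.6 and 42.6 FPKM at 3 days (1.12 ± 0.17, adjusted p = 6.12e-04). Of the 14 collagens, 1 was called without 1 day 1 or 3 day 8, 0 were called without 1 day 3 and 4 were called without 3 day 1. Of the 13 fibroblast genes tested, 0 were called without 1 day 1, 1 day 3 or 3 day 8. Of the 21 matrix glycoprotein genes, 5 were called without 3 day 2. Of the 20 actin genes, 7 were called without 3 day 2. Of the 23 growth factor genes, 3 were called without 1 day 1 or 1 day 3 and 2 were called without 3 day 8. Of the 18 annexins and S100 proteins, 1 was called without 1 day 1 or 3 day 1, 2 were called without 1 day 3 and 0 were called without 3 day 8. Of the 13 metalloproteinase genes, 1 was called without 1 day 3 or 3 day 8. Col1a1 was not called without 1 day 1, 1 day 3 or 3 day 8 (adjusted p = 0.0716 to 0.127), nor Col3a1 without 1 day 3 (adjusted p = 0.0524). Igfbp2 was not called without 1 day 1, 1 day 3, 3 day 1 or 3 day 8 (adjusted p = 0.0611 to 0.0783), nor Fn1 without 3 day 8 (adjusted p = 0.0656). Mmp14 was not called without 1 day 1, 1 day 3 or 3 day 8 (adjusted p = 0.0634 to 0.0874), nor Adam8 without 1 day 1, 1 day 3, 1 day 4, 3 day 1 or 3 day 8 (adjusted p = 0.0609 to 0.257). Tgfbr2 was not called without 3 day 8 (adjusted p = 0.0665), nor Tgfbi without 1 day 1, 1 day 3 or 3 day 8 (adjusted p = 0.0694 to 0.0774). Anxa3 was not called without 1 day 1, 1 day 3, 1 day 4, 3 day 1 or 3 day 8 (adjusted p = 0.0978 to 0.262), nor S100a4 without 1 day 1, 3 day 1 or 3 day 8 (adjusted p = 0.0785 to 0.0937). Anxa5 was not called without 1 day 1, 1 day 3, 3 day 1 or 3 day 8 (adjusted p = 0.0657 to 0.0908), nor Lcp1 without 1 day 1, 1 day 3, 1 day 4, 3 day 1 or 3 day 8 (adjusted p = 0.0757 to 0.232).

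By limma, 0 of 24 pan-neuronal and synaptic genes, 0 of 15 interneuron and neuropeptide genes, 0 of 14 cortical layer markers and 0 of 12 striatal genes were called at an adjusted p of 0.05, although 22 of the 24 pan-neuronal fold changes were below 0 (median -0.11). Of all genes tested, 0.15% were called lower and 5.22% in either direction, so that 0 calls in lists of these sizes lie near the share over all genes. Snap25, the synaptic vesicle fusion protein, was at 500.0, 501 and 413 FPKM at 1 day and 428, 489 and 349 FPKM at 3 days (limma adjusted p = 0.974). Rbfox3, the neuronal nuclear antigen NeuN, was at 32.5, 29.2 and 32.5 FPKM at 1 day and 28.2, 30.2 and 24.98 FPKM at 3 days (adjusted p = 0.991). The glutamate transporter Slc17a7 of cortical neurons was at 106, 107 and 109.5 FPKM at 1 day and 105, 112 and 101 FPKM at 3 days (adjusted p = 1). Each of these overlapped between the groups. Camk2a, the kinase of excitatory synapses, was at 223, 204 and 244 FPKM at 1 day and 197, 201 and 193 FPKM at 3 days, with all 3 day values lower (-0.18 ± 0.16, limma adjusted p = 0.92). Gad1 of inhibitory neurons was at 37.9, 34.9 and 37.3 FPKM at 1 day and 32.9, 37.9 and 26.3 FPKM at 3 days (adjusted p = 0.917). The lowest fold change of the list was that of the neurofilament Nefm, at 59.3, 51.0 and 55.1 FPKM at 1 day and 41.5, 47.0 and 34.9 FPKM at 3 days (-0.42 ± 0.20, limma adjusted p = 0.414). Of 17 myelin and oligodendrocyte genes, 0 were called by limma (median 0.17), with Mbp of compact myelin at 60.6, 74.3 and 96.1 FPKM at 1 day and 62.6, 87.4 and 59.7 FPKM at 3 days. Of 14 genes of oligodendrocyte precursors, 3 rose (median 0.35). Gpr17, a receptor of committed precursors, was at 5.74, 3.76 and 6.31 FPKM at 1 day and 13.1, 12.96 and 14.3 FPKM at 3 days (1.23 ± 0.19, adjusted p = 8.49e-04) with no overlap. Olig1, a factor of the lineage, was at 38.4, 33.7 and 47.5 FPKM at 1 day and 69.8, 74.7 and 84.5 FPKM at 3 days (0.93 ± 0.26, adjusted p = 0.048), and the phosphatase Ptprz1 at 10.3, 8.85 and 10.6 FPKM at 1 day and 13.8, 12.5 and 16.6 FPKM at 3 days (0.48 ± 0.13, adjusted p = 0.0383). Pdgfra, the growth factor receptor of precursors, was at 3.87, 3.67 and 4.48 FPKM at 1 day and 5.36, 5.11 and 6.31 FPKM at 3 days (limma adjusted p = 0.227). Most genes of neutrophils and of T, B and NK cells were at low levels. The 14 neutrophil genes in the file, of which 4 passed the filter, summed to 8.27 to 29.9 FPKM at 1 day and 9.12 to 15.4 FPKM at 3 days. S100a8 was at 1.802, 5.61 and 2.39 FPKM at 1 day and 1.93, 1.28 and 2.15 FPKM at 3 days and did not pass the test (limma adjusted p = 0.9), and Csf3r, the G-CSF receptor, rose, at 0.893, 0.756 and 1.39 FPKM at 1 day and 3.78, 3.26 and 6.49 FPKM at 3 days (1.42 ± 0.20, adjusted p = 3.37e-04). The 17 genes of T, B and NK cells summed to 15.6 to 19.9 FPKM at 1 day and 21.0 to 32.3 FPKM at 3 days, of which most was Ighm, at 16.7, 14.3 and 18.1 FPKM at 1 day and 18.3, 29.2 and 25.4 FPKM at 3 days, and Cd3e did not reach the filter. Hemoglobin Hba-a1, a sign of blood left in the tissue, was at 56.2, 67.9 and 75.9 FPKM at 1 day and 72.5, 98.4 and 85.5 FPKM at 3 days (limma adjusted p = 1). The 10 genes of red cells and platelets in the file summed to 237 to 296 FPKM at 1 day and 307 to 427 FPKM at 3 days, and 0 of the 6 tested were called by limma. The 12 choroid plexus and ependyma genes had 1 call among the 10 tested (10%, against 5.22% of all genes tested). It was Rarres2, at 1.58, 2.48 and 2.71 FPKM at 1 day and 5.33, 4.21 and 4.37 FPKM at 3 days (0.80 ± 0.22, adjusted p = 0.0431). Of 19 nuclear-encoded respiratory chain genes, 15 mitochondrially encoded genes and 30 cytosolic ribosomal protein genes, 0 were called by limma. Of 4 dendritic cell genes tested, Irf8, a factor of myeloid cells, rose by 0.90 ± 0.14 and Siglech, a receptor that microglia carry too, by 1.09 ± 0.14. Of the 14 precursor genes, 1 was called without 1 day 1, 1 day 3, 3 day 1 or 3 day 8. Olig1 was not called without 1 day 1, 1 day 3, 3 day 1, 3 day 2 or 3 day 8 (adjusted p = 0.0959 to 0.218), nor Ptprz1 without 1 day 1, 1 day 3, 1 day 4, 3 day 1 or 3 day 8 (adjusted p = 0.0547 to 0.259). Rarres2 was not called without 1 day 1, 1 day 3, 3 day 1, 3 day 2 or 3 day 8 (adjusted p = 0.0651 to 0.232).

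Among the largest rises outside the groups above, Ifi30, a lysosomal thiol reductase, was at 3.07, 6.14 and 5.63 FPKM at 1 day and 35.8, 23.1 and 33.6 FPKM at 3 days (log2 fold change 2.44 ± 0.22, adjusted p = 5.32e-06) and Lgals1, the galectin of reactive glia and macrophages, at 22.3, 31.5 and 28.0 FPKM at 1 day and 139, 114 and 192 FPKM at 3 days (2.38 ± 0.25, adjusted p = 2.35e-05). Among the largest falls, the small nucleolar RNA Snora33 was at 1.52, 1.03 and 1.78 FPKM at 1 day and 0.108, 0.0699 and 0.0633 FPKM at 3 days (-1.17 ± 0.27, adjusted p = 0.0156). Gpatch4 was at 7.87, 8.85 and 9.37 FPKM at 1 day and 4.13, 3.76 and 3.82 FPKM at 3 days (-0.98 ± 0.21, adjusted p = 0.00874) and Macrod2, which removes ADP-ribose from proteins, at 5.09, 5.36 and 4.89 FPKM at 1 day and 1.63, 1.92 and 4.2 FPKM at 3 days (-0.84 ± 0.19, adjusted p = 0.0117). The rule that named these 5 genes required groups apart, and in Macrod2 the 3 day 8 value came close to the 1 day values. Names of predicted genes were left out of these ranks, of which 25 rose and 3 fell. Snora33 was not called without 1 day 1, 1 day 4, 3 day 1 or 3 day 8 (adjusted p = 0.0511 to 0.0682), nor Macrod2 without 1 day 3, 3 day 1 or 3 day 2 (adjusted p = 0.0548 to 0.0799).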

How the data were processed

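Total RNA of punched brain tissue was sequenced in 18 libraries, 3 in each of 6 groups. The authors deposited FPKM values per gene, made with Trimmomatic 0.36, HISAT2 2.1.0 and StringTie 1.3.4d on GRCm38, per the submitters' processing notes. The authors also deposited p-values and q-values per gene for a comparison not given in the sources used here, and these were not used. Altogether 34921 complete entries, ordered by q-value up to 0.908, were analysed, and about 3100 further entries were not analysed here. Gene symbols are those of GENCODE M21 for the deposited Ensembl identifiers, which replaced the deposited name in 1628 entries. Low values fell on no whole read steps, so that no counts were derived and the depth is not known. The sum of mitochondrial and other transcripts enters each FPKM, so a change in an abundant class shifts all others.

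Genes with at least 1 FPKM in 3 or more of the 18 libraries were kept. Values of log2(FPKM + 1) were fitted with limma 3.58.1 (R 4.3.3, statmod 1.5.0) with 1 mean per group over all 18 libraries, so that all groups share the estimate of the spread, with trended and robust empirical Bayes moderation. The contrast of 3 days minus 1 day was adjusted by Benjamini-Hochberg over all 14016 genes and called at 0.05. Fold change errors are SE, and group levels are mean ± SD (n = 3). The procedure was tested on simulated data. Each group's 3 samples come from 3 animals per the labels' protocols. The p-values and SE rest on the spread between libraries within groups, pooled over all 18 libraries and not over the 1 day and 3 day libraries alone.

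The members, the 50 gene lists and the panel were chosen with earlier results of these data known. A gene was named if it was among the 12 largest called rises or falls with groups apart and at least 1 FPKM, among the 3 called members with the smallest adjusted p of a list (all where 5 or fewer were called), or in a panel of 66 genes, of which 63 were tested. Anln, C3, C4b, Cdkn1a, Drd2, Hsp90ab1, Hspa8, Lamp1, Lamp2, Ly6c2, Mertk, Mrc1, Slc1a2 and the helicase subunits Mcm3, Mcm6 and Mcm7 were added after their values were seen. Some genes that the rule names are not reported here. Genes whose promoters are shown were chosen by motif and adjusted p. Promoters are RefSeq sequences of GRCm38.p6. Alternatives were other pseudocounts, filters, scalings, library weights, a replicate block, fewer groups and leaving out each library.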

Additional observations from a re-analysis of the deposited data

How the results depend on the processing

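As reported, 711 genes rose and 21 fell. Counts moved by more than 1.5 times under some alternatives. When the 2 libraries contralateral left 5 and 10 day 5 were left out of the fit, 1228 rose and 62 fell. These had the lowest library weights of the 18, 0.121 and 0.103. They are outside the comparison but enter the pooled spread behind each SE and p-value. The 10 day 5 library, with 44.6% mitochondrial FPKM, also enters the 10 day levels given above. Quantile normalization gave 453 rises and 40 falls, library weights gave 1862 rises and 173 falls, and 35 fell with no filter. With the replicate number as a block, 368 rose and 9 fell. That block says little here, since the numbers of the 1 day and 3 day libraries share only number 1 and nothing in the labels says that a number pairs animals. Leaving out 1 library gave 388 to 781 rises and 11 to 18 falls. Leaving out 1 day 4 and 3 day 2 together, an alternative chosen after seeing the data, gave 744 rises and 10 falls. The other alternatives (pseudocounts 0.1 and 0.5, a filter on the 6 libraries compared, a fit of those 6 libraries, median-ratio scaling and scaling without mitochondrial genes) gave 573 to 703 rises and 17 to 26 falls. Similar totals did not mean the same genes. The fit of the 6 libraries alone kept 510 of the 711 rises and 12 of the 21 falls, and quantile normalization kept 440 and 20. Among the genes not called in the fit of the 6 libraries were Angpt2, Aqp4, Col1a1, Col3a1, Gfap, Hspa1a, Hspa1b, Macrod2 and Steap4. No gene called as reported changed sign in any of these. The cause of the moves was not tested. List medians changed sign in 11 of 50 lists, all with medians between -0.16 and 0.25. Read depth is not known, so that no limit from counting can be given for genes at low FPKM.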

Other observations

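Several called genes outside the lists share a known function. They were chosen after their values were seen, and no group of them was tested. Enzymes of fatty acid oxidation were among the rises. Cpt1a, the carnitine transferase of the outer mitochondrial membrane, was at 4.44, 4.55 and 4.69 FPKM at 1 day and 9.50, 7.98 and 10.15 FPKM at 3 days (log2 fold change 0.87 ± 0.15, adjusted p = 0.00186), and Cpt2 of the inner membrane at 2.03, 1.81 and 2.15 FPKM at 1 day and 3.92, 3.42 and 3.85 FPKM at 3 days (0.66 ± 0.15, adjusted p = 0.0111). The dehydrogenases Acadl (0.67 ± 0.14), Acads (0.90 ± 0.18), Hadh (0.71 ± 0.14) and Hadha (0.45 ± 0.11) were called as well. Pdk4, which limits the entry of pyruvate into the citrate cycle, was at 1.63, 2.05 and 2.23 FPKM at 1 day and 3.88, 3.56 and 3.11 FPKM at 3 days (0.61 ± 0.13, adjusted p = 0.011). All values of these genes at 3 days were above all values at 1 day. The same held for 707 of the 711 genes called higher, so that it follows largely from the choice of called genes. Enzymes of this pathway that were not called were not counted. Cpt2 was not called without 1 day 3, 3 day 1 or 3 day 8 (adjusted p = 0.0549 to 0.0618), nor Hadha without 1 day 1, 1 day 3, 3 day 1 or 3 day 8 (adjusted p = 0.093 to 0.108). Pdk4 was not called without 1 day 1 or 3 day 1 (adjusted p = 0.0656 to 0.08).

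Several subunits of the phagocyte NADPH oxidase, which makes superoxide, were called. Cyba was at 5.56, 6.77 and 5.31 FPKM at 1 day and 22.3, 14.1 and 17.5 FPKM at 3 days (log2 fold change 1.45 ± 0.26, adjusted p = 0.00235), Cybb at 0.298, 0.335 and 0.425 FPKM at 1 day and 2.02, 1.24 and 2.50 FPKM at 3 days (1.09 ± 0.23, adjusted p = 0.00926) and Ncf1 at 2.03, 2.77 and 2.90 FPKM at 1 day and 9.38, 5.72 and 10.3 FPKM at 3 days (1.38 ± 0.17, adjusted p = 1.29e-04), and Ncf4 rose by 0.67 ± 0.15. The proton channel Hvcn1, which works with the oxidase, rose by 1.11 ± 0.12. Of the caspases, the proteases of cell death, Casp8 was at 1.79, 2.14 and 2.23 FPKM at 1 day and 5.50, 3.84 and 6.82 FPKM at 3 days (1.04 ± 0.19, adjusted p = 0.00302), and Casp6 rose by 0.54 ± 0.12. Transcription factors of the myeloid lineage rose too, with Spi1 at 2.34, 2.27 and 2.09 FPKM at 1 day and 5.85, 3.84 and 6.10 FPKM at 3 days (0.93 ± 0.17, adjusted p = 0.00257) and Cebpa at 3.84, 4.44 and 4.72 FPKM at 1 day and 11.6, 8.17 and 8.83 FPKM at 3 days (0.97 ± 0.26, adjusted p = 0.0369). Klk6, a secreted protease of oligodendrocytes, was at 2.76, 5.19 and 10.21 FPKM at 1 day and 19.8, 19.0 and 14.8 FPKM at 3 days (1.55 ± 0.33, adjusted p = 0.00796), and the neurotrophic factor Cntf of glia at 0.683, 0.985 and 1.08 FPKM at 1 day and 4.91, 2.09 and 2.69 FPKM at 3 days (1.09 ± 0.21, adjusted p = 0.00365). Cybb was not called without 3 day 8 (adjusted p = 0.0689), nor Ncf4 without 1 day 1, 3 day 1 or 3 day 8 (adjusted p = 0.0804 to 0.0889). Casp6 was not called without 1 day 3, 3 day 1 or 3 day 8 (adjusted p = 0.051 to 0.0626), nor Cebpa without 1 day 1, 1 day 3, 1 day 4, 3 day 1 or 3 day 8 (adjusted p = 0.0673 to 0.177).

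A gene that the file names Itgam is not the gene of that name in GENCODE. The entry ENSMUSG00000108596 (Gm49368 in GENCODE M21, chr7:128062683-128128160, plus strand, GRCm38) overlaps Itgam, the integrin chain CD11b, at chr7:128062640-128118491, plus strand. Gm49368 was listed at 0, 0 and 0 FPKM at 1 day and 9.69, 5.58 and 8.08 FPKM at 3 days, and it was called. Itgam itself was at 4.41, 4.34 and 5.27 FPKM at 1 day and 8.04, 6.78 and 7.39 FPKM at 3 days and was not called (0.57 ± 0.23, limma adjusted p = 0.265). Reads of overlapping models cannot be assigned with certainty, and the sum of both entries was not tested.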
